A study of Mus musculus with 12 samples.

Results

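Genes for enzymes that cut, protect or crosslink extracellular matrix were examined in mouse liver. The genes were chosen by symbol, as the matrix metalloproteinases (Mmp), tissue inhibitors of metalloproteinases (Timp), ADAMTS proteases, ADAMTS-like proteins (Adamtsl), lysyl oxidases (Lox, Loxl), lysyl hydroxylases (Plod) and prolyl 4-hydroxylase alpha subunits (P4ha). The rule took 62 of the 55357 genes in the count table, namely 23 MMP, 4 TIMP, 19 ADAMTS, 5 ADAMTS-like, 5 lysyl oxidase, 3 lysyl hydroxylase and 3 prolyl 4-hydroxylase genes. Of these, 51 passed the filter on low counts and were tested among 17358 genes. Liver RNA came from male C57BL/6J mice that started a diet at 7 weeks of age and were killed at 13 weeks, after 6 weeks on chow or on CDAHFD, a high-fat diet that is defined in its L-amino acids and lacks choline. WT mice (PPARa fl/fl AlbuminCre +/+) on chow gave 4 libraries (WT chow) and WT mice on CDAHFD gave 3 (WT CDAHFD), while hepatocyte-specific PPARα KO mice (PPARa fl/fl AlbuminCre Tg/+) on chow gave 2 (KO chow) and KO mice on CDAHFD gave 3 (KO CDAHFD). WT mice thus carried the floxed alleles too, and Cre was driven by the albumin promoter, which is active in hepatocytes, so other liver cells of KO mice kept Ppara.

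Liver matrix is laid down mostly by activated stellate cells and fibroblasts. Collagen chains are hydroxylated inside the cell by prolyl and lysyl hydroxylases, trimmed outside it by ADAMTS procollagen N-proteinases, and then joined into stable fibrils by lysyl oxidases. MMPs, zinc proteases that are secreted or anchored in the membrane, cut collagen, elastin and other matrix proteins. TIMPs bind the active site of MMPs and block them, and in a fibrotic liver breakdown and stabilization of matrix run side by side.

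Total counts per library ran from 29906785 to 43551003, and a gene without a count could still hold up to 3 counts in a library, or 0.0583 to 0.138 CPM, by counting error alone. CPM is the count relative to the size of its library, which was scaled by the TMM method. Ppara had 96.2 to 237.8 CPM in WT chow, 59.5 to 75.5 CPM in WT CDAHFD, 14.4 and 38.7 CPM in KO chow and 20.7 to 51.9 CPM in KO CDAHFD. These counts cover the whole gene and all liver cells and do not measure intact Ppara. In a supplementary list of liver histology for the sequenced mice, KO chow has more mice than KO CDAHFD, the reverse of the libraries, and whether a library is under the wrong KO group was not tested. KO chow replicate 2 is numbered 3 in one of its labels. The labels name no batch, so a batch that coincided with a group could not be told apart from it. A clock score (mean log2 CPM of genes high near dusk minus that of genes high near dawn) was above 0 in WT chow replicates 3 and 4, KO chow replicate 2 and KO CDAHFD replicate 3, and below 0 in the other 8 libraries. WT chow replicate 1 stood apart from the other WT chow libraries by its myofibroblast markers, such as Acta2 with 31.9 CPM against 1.27 to 1.48 CPM, and by several genes described below. Bulk liver RNA cannot separate more cells of a type from more RNA per cell.

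Of the MMP genes, 10 lie side by side on chromosome 9 (GRCm38, chr9:7272514-7699585), over 427.1 kb. In this cluster Mmp13, Mmp12, Mmp8, Mmp27 and Mmp7 rose in KO chow and in WT CDAHFD and KO CDAHFD relative to WT chow, Mmp3 was tested and did not pass the threshold, and Mmp1b, Mmp1a, Mmp10 and Mmp20 had 0, 0, 7 and 1 counts over the 12 libraries. The sequences before the transcription start of Mmp13, Mmp12 and Mmp7, which rose most, and of Mmp3, Mmp1a and Mmp10, which were low or without counts, are shown to compare these neighbours. Each is 150 bases long, 5′ to 3′ on the plus strand, from RefSeq on GRCm38.p6, at chr9:7272364-7272513, chr9:7347224-7347373, chr9:7691940-7692089, chr9:7445672-7445821, chr9:7463991-7464140 and chr9:7502192-7502341 in that order. Capitals mark TGANTCA, the letters bound by AP-1 (the Fos and Jun factors), and TATAAA, the TATA box.
Mmp13: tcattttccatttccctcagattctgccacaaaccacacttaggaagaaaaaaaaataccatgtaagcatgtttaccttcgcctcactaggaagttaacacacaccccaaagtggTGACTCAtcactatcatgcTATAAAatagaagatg
Mmp12: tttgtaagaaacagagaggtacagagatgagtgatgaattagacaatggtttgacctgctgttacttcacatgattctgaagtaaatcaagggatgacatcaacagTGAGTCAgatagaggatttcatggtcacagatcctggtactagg
Mmp7: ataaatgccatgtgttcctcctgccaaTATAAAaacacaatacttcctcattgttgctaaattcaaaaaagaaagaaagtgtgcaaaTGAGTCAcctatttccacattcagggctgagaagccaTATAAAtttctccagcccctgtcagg
Mmp3: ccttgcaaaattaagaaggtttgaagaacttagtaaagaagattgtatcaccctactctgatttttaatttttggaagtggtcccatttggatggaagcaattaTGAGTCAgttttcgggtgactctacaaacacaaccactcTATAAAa
Mmp1a: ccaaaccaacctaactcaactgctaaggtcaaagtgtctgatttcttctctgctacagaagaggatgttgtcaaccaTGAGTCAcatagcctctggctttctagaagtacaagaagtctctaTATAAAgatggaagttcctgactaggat
Mmp10: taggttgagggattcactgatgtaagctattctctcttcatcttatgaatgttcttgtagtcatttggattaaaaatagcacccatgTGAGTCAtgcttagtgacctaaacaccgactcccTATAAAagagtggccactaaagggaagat
RefSeq gives Mmp12 and Mmp7 a second start each, and the windows with TGANTCA are the ones shown. That of Mmp12 lies inside the gene as GENCODE draws it, and the other window, at chr9:7344247-7344396 around the gene's first base there, holds neither motif. The other window of Mmp7, at chr9:7692191-7692340, holds neither motif as well.
Within 250 bases before the start, TGANTCA stood on either strand in 8 of the 45 member windows (17.8%), which belong to 42 member genes, and in 6.75% of the 32851 windows of all genes. The 8 windows belong to Mmp13, Mmp12, Mmp1b, Mmp3, Mmp1a, Mmp10, Mmp20 and Mmp7. Genes of the cluster with many counts and genes without a count both held the letters, while Mmp8 and Mmp27, which rose, held none in this window. TATAAA stood on the coding strand in 10 member windows (22.2%) and in 7.59% of all windows, and both motifs stood together in 7 member windows (15.6%) and in 0.79% of all windows. AGGAAGT, an ETS motif, was found on either strand in 6 member windows (13.3%), those of Mmp12, Mmp13, Mmp7, Mmp8, Timp1 and Timp4, and in 7.69% of all windows. A direct repeat of AGGNCA with a spacer of 1 base, the PPAR response element, was in 0 of the 45 member windows and in 0.34% of all windows. A match describes letters only and is not a measured binding site.

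**Figure D1:**
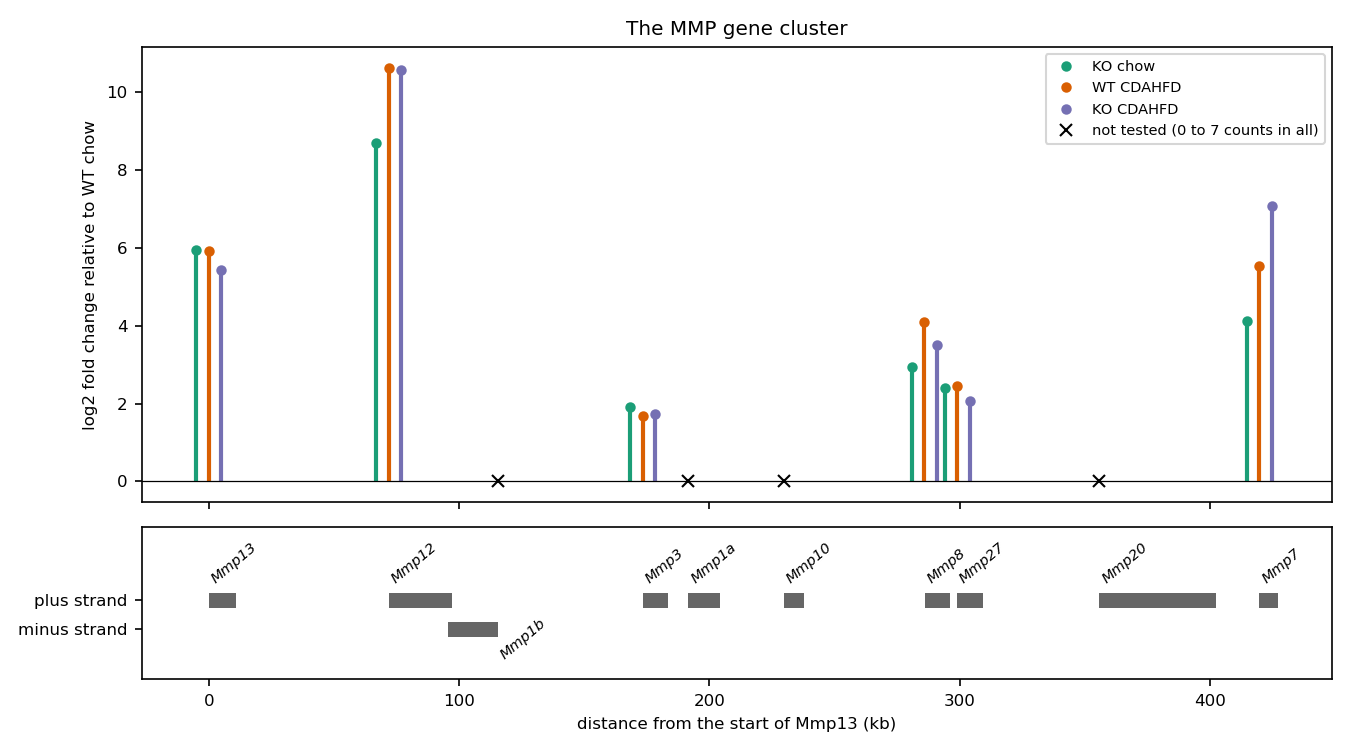
The MMP gene cluster. The upper axis gives the log2 fold change relative to WT chow for the 3 other groups against distance from the start of Mmp13 in kb, and the lower axis shows each gene's extent and strand. Mmp12 reached 8.70 to 10.64, Mmp7 and Mmp13 stood next, and crosses mark the 4 genes with 0 to 7 counts that were not tested.

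Relative to WT chow, most of the tested proteases, inhibitors and crosslinkers rose, in KO chow and in both CDAHFD groups. In KO chow, 34 of the 51 members tested rose and 1 (Adamts6) fell, where 22.0% of all genes tested rose and 17.0% fell. In WT CDAHFD, 40 rose and 1 (Mmp19) fell, where 26.1% of all genes rose and 25.0% fell. In KO CDAHFD, 40 rose and 1 (Mmp19) fell, where 26.9% of all genes rose and 25.4% fell. The median log2 fold change of the tested members was 1.58, 2.33 and 2.46 in KO chow and in WT CDAHFD and KO CDAHFD, and that of all genes tested was 0.00, -0.05 and -0.04. Members that passed the filter through the groups where they were high had to differ, so these counts describe the tested members and not the 62. The 3 comparisons share the WT chow libraries. A call here is an adjusted p under 0.05 from edgeR's quasi-likelihood test, adjusted by Benjamini-Hochberg across the 17358 genes, and every adjusted p given is from that test unless DESeq2 is named.

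**Figure D2:**
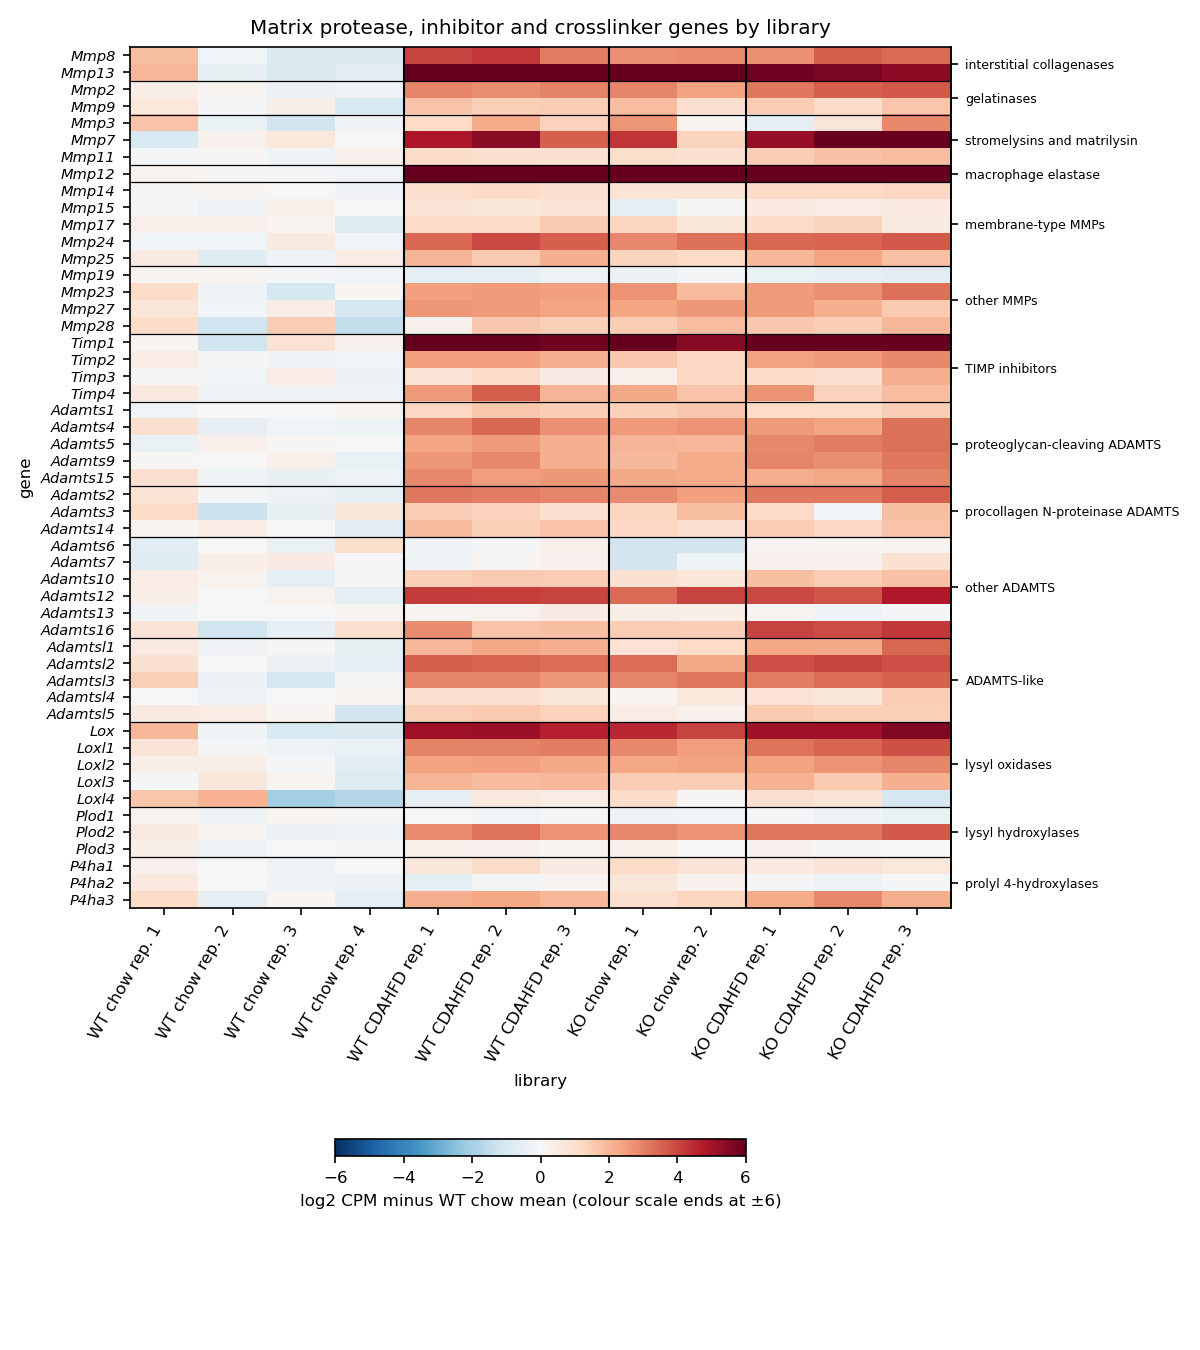
Levels of the 51 tested members (rows, grouped by role) in the 12 libraries (columns), as log2 CPM minus the mean of the 4 WT chow libraries, with a colour scale that ends at ±6. Most rows are red in the 8 libraries of KO chow, WT CDAHFD and KO CDAHFD, Mmp12, Mmp13 and Timp1 most of all. Mmp3, Mmp15, Adamts3, Adamts6, Adamts7, Adamts13, P4ha2 and Loxl4 lie on both sides of the WT chow mean. Mmp19 and Plod1 lie below it in all 8 with this TMM scaling, though their mean changes turn above 0 with library size only.

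The interstitial collagenases, which cut fibrillar collagen at a single site, were nearly absent in WT chow and present in the other groups. Mmp13 (ENSMUSG00000050578, chr9:7272514-7283331), the main such collagenase of rodents, had 0.582, 0.063, 0.0333 and 0.0459 CPM in WT chow, 11.3, 10.5 and 10.5 in WT CDAHFD, 10.9 and 11.1 in KO chow and 8.85, 7.97 and 6.47 in KO CDAHFD. The highest WT chow library, replicate 1, stayed below the lowest of the 8 others. On the log2 scale it differed from WT chow by 5.91 in WT CDAHFD, 5.44 in KO CDAHFD and 5.95 in KO chow (SE 0.48 to 0.50, adjusted p at most 2.05e-06). Mmp8 (ENSMUSG00000005800), stored in neutrophil granules, had 0.272, 0.0315, 0 and 0 CPM in WT chow, 1.5, 1.69 and 0.743 in WT CDAHFD, 0.571 and 0.606 in KO chow and 0.582, 1.1 and 0.928 in KO CDAHFD. The groups did not overlap with WT chow, and again WT chow replicate 1 was its highest library. Compared with WT chow, this was a log2 fold change of 4.09 in WT CDAHFD, 3.5 in KO CDAHFD and 2.94 in KO chow (SE 0.70 to 0.81, adjusted p at most 0.0116). Mmp1a and Mmp1b had no count in any library. The neutrophil markers rose alongside, 5 of 7 tested in KO chow and in WT CDAHFD and 7 of 7 in KO CDAHFD, and their summed level was 2.93 to 14 CPM in WT chow, 24.3 to 27.7 CPM in WT CDAHFD, 21.2 to 32.2 CPM in KO chow and 23 to 27.4 CPM in KO CDAHFD, with Mpo, Camp and Ltf at 0 in the WT chow libraries. Their part in the Mmp8 values was not tested.

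The gelatinases, which cut denatured collagen and basement membrane, both rose. Mmp2 (ENSMUSG00000031740, chr8:92827291-92853420), made by stellate cells and fibroblasts, had 4.39, 3.81, 2.63 and 2.84 CPM in WT chow, 25.5, 23.3 and 27.1 in WT CDAHFD, 26.1 and 17.8 in KO chow and 30.5, 40.4 and 44 in KO CDAHFD. Every other library held more than the highest WT chow library by a wide margin. Expressed as log2 fold change this was 2.88 in WT CDAHFD, 3.48 in KO CDAHFD and 2.68 in KO chow (SE 0.20 to 0.21, adjusted p at most 1.35e-06). Mmp9 (ENSMUSG00000017737), known from macrophages and neutrophils, had 1.44, 0.881, 1.2 and 0.459 CPM in WT chow, 3.13, 2.54 and 2.64 in WT CDAHFD, 3.4 and 1.92 in KO chow and 2.72, 2.01 and 3.07 in KO CDAHFD. The groups did not overlap with WT chow, but the gap to KO chow replicate 2 was narrow. In log2 fold change this came to 1.46 in WT CDAHFD, 1.37 in KO CDAHFD and 1.4 in KO chow (SE 0.32 to 0.35, adjusted p at most 0.00738), and without KO chow replicate 1 that of KO chow was 0.95 (adjusted p = 0.141) and no longer passed the threshold.

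Macrophage elastase, Mmp12 (ENSMUSG00000049723, chr9:7344381-7369499), which cuts elastin and is made by macrophages, showed the largest change of any member. It had 0.311, 0.283, 0.233 and 0.229 CPM in WT chow, 479, 448 and 354 in WT CDAHFD, 79.7 and 143 in KO chow and 392, 381 and 448 in KO CDAHFD. The WT chow libraries were alike, the KO chow libraries lay far above them, and the CDAHFD libraries of both genotypes were higher still, with no overlap between KO chow and the CDAHFD groups. The log2 fold change relative to WT chow was 10.64 in WT CDAHFD, 10.57 in KO CDAHFD and 8.7 in KO chow (SE 0.26 to 0.27, adjusted p at most 1.39e-09). Mmp12 was also higher in KO CDAHFD than in KO chow, by 1.87 (adjusted p = 8.71e-04, SE 0.22), and lower in KO chow than in WT CDAHFD, by -1.94 (adjusted p = 5.02e-04, SE 0.22). On a scale per length (CPM per kb of exon), it rose from 0.0365 ± 0.00546 in WT chow to 59 ± 9.01 in WT CDAHFD, 56.2 ± 5.0 in KO CDAHFD and 15.4 ± 6.18 in KO chow (SD, n = 4, 3, 3 and 2). Most macrophage markers rose as well, with 8 of 9 higher in each of the 3 comparisons. The summed level of all 9 was 330.3 to 609.6 CPM in WT chow and 1279 to 1456 CPM in KO chow. It was 2129 to 2930.2 CPM in WT CDAHFD and 2183 to 2385 CPM in KO CDAHFD. Single markers did not all follow the order of Mmp12. Clec4f had 102 to 168 CPM in WT chow and 204 and 246 CPM in KO chow. It had 84.5 to 111 CPM in WT CDAHFD and 34.1 to 140 CPM in KO CDAHFD. The highest Cd5l library, at 448 CPM, was in KO chow. None of the 9 macrophage markers was at 0 in any group, and their part in the Mmp12 values was not tested.

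Among stromelysins and matrilysin, Mmp7 and Mmp11 rose. Mmp7 (ENSMUSG00000018623, chr9:7692090-7699585), matrilysin, a small MMP of epithelia such as bile duct, had 0, 0.063, 0.10 and 0.0459 CPM in WT chow, 2.81, 4.08 and 1.14 in WT CDAHFD, 1.85 and 0.194 in KO chow and 3.66, 9.52 and 10.3 in KO CDAHFD. KO chow replicate 1 lay far above replicate 2, which was still above WT chow, and KO CDAHFD replicates 2 and 3 were the highest libraries. Against WT chow this gave a log2 fold change of 5.53 in WT CDAHFD, 7.08 in KO CDAHFD and 4.12 in KO chow (SE 0.87 to 1.06, adjusted p at most 0.0079). Without KO chow replicate 1, that of KO chow was 1.78 (adjusted p = 0.356), so the call rests on that library. Cholangiocyte markers were higher in 4 of 5 cases in KO chow and 5 of 5 in each CDAHFD group, at a summed level of 7.17 to 20.5 CPM in WT chow, 46.5 to 56.7 CPM in WT CDAHFD, 26 to 37.4 CPM in KO chow and 72.4 to 90.1 CPM in KO CDAHFD, and their part in the Mmp7 values was not tested. Mmp11 (ENSMUSG00000000901), stromelysin-3 of stromal cells, had 0.893, 0.976, 0.767 and 1.15 CPM in WT chow, 2.05, 1.9 and 1.84 in WT CDAHFD, 1.99 and 1.79 in KO chow and 2.74, 3.29 and 3.54 in KO CDAHFD. Its libraries formed 3 steps, with WT chow lowest, KO chow and WT CDAHFD between, and KO CDAHFD highest. Its log2 fold change was 1.03 in WT CDAHFD, 1.76 in KO CDAHFD and 1.0 in KO chow (SE 0.20 to 0.22, adjusted p at most 0.00347). Its exons overlap those of Chchd10 on the opposite strand over 155 bases, a gene with far more counts that fell in the same comparisons, and the libraries keep no strand. Mmp3, stromelysin-1, had 0 to 0.785 CPM and 121 counts in all, with an adjusted p of 0.241 in WT CDAHFD, 0.228 in KO CDAHFD and 0.252 in KO chow.

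Of the membrane-type MMPs, Mmp14 and Mmp15 were the abundant ones. Mmp14 (ENSMUSG00000000957, chr14:54431612-54445364), which activates pro-Mmp2 at the cell surface, had 55.4, 58.3, 52.1 and 45.4 CPM in WT chow, 108, 115 and 102 in WT CDAHFD, 92.5 and 92.7 in KO chow and 119, 120.04 and 125 in KO CDAHFD. The 4 groups did not overlap, with WT chow lowest, then KO chow, WT CDAHFD and KO CDAHFD. On the log2 scale it differed from WT chow by 1.03 in WT CDAHFD, 1.2 in KO CDAHFD and 0.81 in KO chow (SE 0.10 to 0.11, adjusted p at most 8.95e-05). Mmp15 (ENSMUSG00000031790), another such protease that is found in epithelia, had 63.7, 57.4, 84.1 and 69.3 CPM in WT chow, 115, 109 and 115 in WT CDAHFD, 45 and 72.1 in KO chow and 102, 91.7 and 102 in KO CDAHFD. KO chow overlapped with WT chow, and both CDAHFD groups lay above them. Relative to WT chow, its log2 fold change was 0.72 (adjusted p = 0.00203, SE 0.16) in WT CDAHFD, 0.52 (adjusted p = 0.0137, SE 0.16) in KO CDAHFD and -0.23 (adjusted p = 0.341, SE 0.18) in KO chow, which did not pass the threshold. Without KO chow replicate 2 the KO chow value was -0.61 (adjusted p = 0.0299), past the threshold, and without KO chow replicate 1 it was 0.09 (adjusted p = 0.765). Mmp17 and Mmp25, both tethered by a lipid anchor, were present at 0.0315 to 1.86 CPM and rose in the 3 comparisons, with log2 fold changes from 0.98 to 2.48. The KO chow rise of Mmp17, 0.98 (adjusted p = 0.0465, SE 0.36), missed the threshold without WT chow replicate 3 or 4, any one WT CDAHFD library, KO CDAHFD replicate 1 or KO chow replicate 1, where it was 0.66 (adjusted p = 0.334). Its KO CDAHFD rise was 0.98 (adjusted p = 0.0522) without KO CDAHFD replicate 1 and 0.83 (adjusted p = 0.078) without replicate 2. The KO chow rise of Mmp25, 1.57 (adjusted p = 0.0327, SE 0.53), was not past it without WT chow replicate 2 or 3 or either KO chow library, where the adjusted p ran from 0.0674 to 0.132. Mmp24 had 1 count in the WT chow libraries together, against 104 in WT CDAHFD, 78 in KO CDAHFD and 36 in KO chow. The ratio of its CPM to WT chow was 77.8 (95% counting interval 13.7 to 3104) in WT CDAHFD, 70.6 (12.3 to 2826) in KO CDAHFD and 50.5 (8.50 to 2047) in KO chow. Exons of Mmp24 overlap over 637 bases with BC029722 on the opposite strand, which has more counts and rose as well, and reads of the 2 genes in that stretch cannot be told apart. Mmp16 had 18 counts over the 12 libraries and was not tested.

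Mmp19, an MMP of broad substrate range, was the most abundant MMP gene per length in WT chow and moved against the rest. It (ENSMUSG00000025355, chr10:128790910-128800824) had 71.6, 71.5, 58.2 and 56.3 CPM in WT chow, 43.4, 42.7 and 52.3 in WT CDAHFD, 49.7 and 61.6 in KO chow and 48.1, 45.3 and 40.2 in KO CDAHFD. Both CDAHFD groups lay below the WT chow libraries, and KO chow overlapped with them. Its log2 fold change was -0.48 (adjusted p = 0.00791, SE 0.13) in WT CDAHFD, -0.53 (adjusted p = 0.00412, SE 0.13) in KO CDAHFD and -0.21 (adjusted p = 0.28, SE 0.15) in KO chow. With library size as the only scaling these became 0.072, 0.070 and 0.19, so the direction of Mmp19 rests on the TMM scaling. Mmp23 (ENSMUSG00000029061), a membrane MMP that sheds its own anchor, had 1.98, 0.755, 0.40 and 0.963 CPM in WT chow, 5.04, 5.52 and 5.03 in WT CDAHFD, 6.06 and 3.4 in KO chow and 5.38, 6.26 and 9.01 in KO CDAHFD. The groups were apart from WT chow, with log2 fold changes of 2.36 in WT CDAHFD, 2.77 in KO CDAHFD and 2.22 in KO chow (SE 0.39 to 0.42, adjusted p at most 0.00118). Mmp27 (ENSMUSG00000070323) had 1.05, 0.535, 0.834 and 0.275 CPM in WT chow, 4.08, 3.86 and 3.34 in WT CDAHFD, 3.34 and 3.9 in KO chow and 3.81, 2.81 and 1.93 in KO CDAHFD. The lowest library outside WT chow was KO CDAHFD replicate 3, still above the highest of WT chow. Compared with WT chow, this was a log2 fold change of 2.46 in WT CDAHFD, 2.06 in KO CDAHFD and 2.41 in KO chow (SE 0.33 to 0.36, adjusted p at most 2.35e-04). Mmp28 (epilysin) spread from 0.0459 to 0.700 CPM within WT chow, overlapped with the other groups and had an adjusted p of 0.175, 0.36 and 0.112 in KO chow and in WT CDAHFD and KO CDAHFD. Its exons overlap with 1700020L24Rik on the opposite strand over 466 bases.

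Of the inhibitors, 3 of 4 rose in KO chow and 4 of 4 in each CDAHFD group. Timp1 (ENSMUSG00000001131, chrX:20870166-20874735), the inducible inhibitor and a marker of liver fibrosis, had 0.0776, 0, 0.167 and 0.0917 CPM in WT chow, 8.34, 8.45 and 6.71 in WT CDAHFD, 8.16 and 5.36 in KO chow and 8.41, 10.5 and 12.7 in KO CDAHFD. WT chow held 9 counts of Timp1 in all, and the groups were far apart. Expressed as log2 fold change this was 6.51 in WT CDAHFD, 6.94 in KO CDAHFD and 6.3 in KO chow (SE 0.40 to 0.42, adjusted p at most 3.61e-07). Timp2 (ENSMUSG00000017466, chr11:118301069-118355740), which inhibits MMPs and also takes part in the activation of pro-Mmp2 by Mmp14, was the most abundant inhibitor per length in every group. It had 22, 15.5, 13.8 and 14.5 CPM in WT chow, 88.6, 90.05 and 70.3 in WT CDAHFD, 49.9 and 37.8 in KO chow and 85.2, 95.6 and 121 in KO CDAHFD. The libraries formed 3 steps without overlap, WT chow, then KO chow, then both CDAHFD groups. In log2 fold change this came to 2.33 in WT CDAHFD, 2.61 in KO CDAHFD and 1.41 in KO chow (SE 0.18 to 0.20, adjusted p at most 1.20e-04). Timp2 was higher in KO CDAHFD than in KO chow by 1.2 (adjusted p = 0.010, SE 0.22) and lower in KO chow than in WT CDAHFD by -0.92 (adjusted p = 0.0296, SE 0.22). The first difference was 1.01 (adjusted p = 0.0808) without KO chow replicate 2. The second was not past the threshold without either KO chow library, WT CDAHFD replicate 1 or WT CDAHFD replicate 2, where it ran from -1.14 to -0.73. Timp3 (ENSMUSG00000020044), which is held in the matrix and also inhibits ADAMTS proteases, had 11.7, 9.73, 15.2 and 8.71 CPM in WT chow, 19.4, 23.7 and 15.6 in WT CDAHFD, 13.9 and 26 in KO chow and 23.5, 22.4 and 50.6 in KO CDAHFD. KO chow replicate 1 lay within the WT chow range, while KO chow replicate 2 and KO CDAHFD replicate 3, both with a clock score above 0, were the highest of their groups. For Timp3 the log2 fold change was 0.78 (adjusted p = 0.0485, SE 0.31) in WT CDAHFD, 1.5 (adjusted p = 0.00123, SE 0.31) in KO CDAHFD and 0.81 (adjusted p = 0.0777, SE 0.34) in KO chow. The WT CDAHFD call was lost without WT chow replicate 1, 2 or 4 or WT CDAHFD replicate 1 or 2, where the value ran from 0.62 to 0.82, and the KO chow value passed the threshold without KO chow replicate 1 at 1.21 (adjusted p = 0.0464) and without KO CDAHFD replicate 3 at 0.82 (adjusted p = 0.0268). Timp4 had 1 count in WT chow, against 60 in WT CDAHFD, 25 in KO CDAHFD and 15 in KO chow, and CPM ratios to WT chow of 44.9 (95% counting interval 7.76 to 1803), 22.6 (3.71 to 930) and 21.0 (3.23 to 885) in the same order. In the edgeR test the KO chow rise of Timp4 was not past the threshold without KO chow replicate 1 (3.59, adjusted p = 0.0804). Its 90-base exon overlap with Syn2 on the opposite strand, a gene that rose in KO CDAHFD, limits these values.

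**Figure D3:**
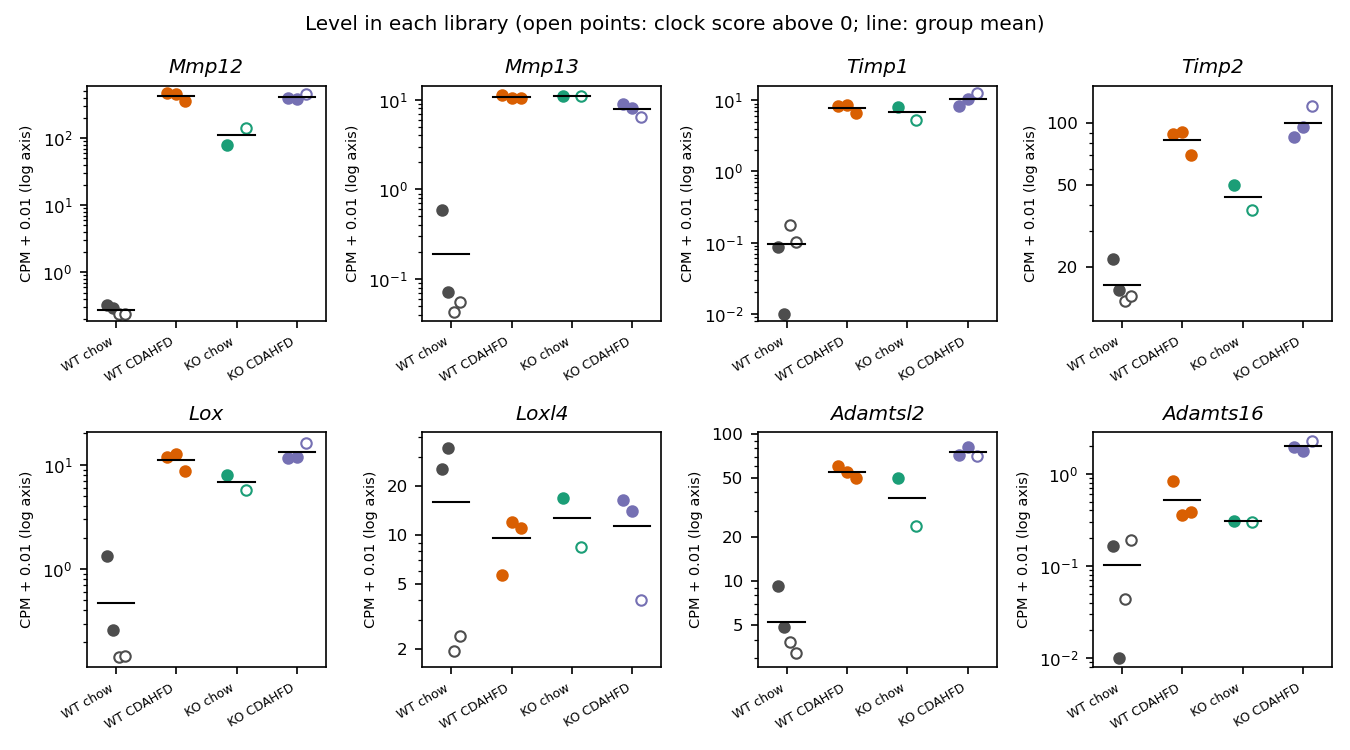
CPM + 0.01 on a log axis in each library for Mmp12, Mmp13, Timp1, Timp2, Lox, Loxl4, Adamtsl2 and Adamts16, with a line at the group mean and open points for libraries with a clock score above 0. KO chow lies between WT chow and the CDAHFD groups for Mmp12 and Timp2, Adamts16 is highest in KO CDAHFD, and for Loxl4 the open points are the lowest of WT chow, KO chow and KO CDAHFD.

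To set breakdown against inhibition within a library, levels per length were summed over the MMP genes and over the TIMP genes. The MMP sum was 42.6 ± 2.94 CPM per kb in WT chow, 132 ± 9.34 in WT CDAHFD, 136 ± 9.2 in KO CDAHFD and 75.2 ± 8.13 in KO chow (SD, n = 4, 3, 3 and 2). Mmp14, Mmp15 and Mmp19 together made up 93.4 ± 1.75% of it in WT chow, and Mmp12 only 0.0854 ± 0.00871%. In KO chow the share of Mmp12 was 20.1 ± 6.04%, in WT CDAHFD 44.6 ± 3.8% and in KO CDAHFD 41.2 ± 1.54%, so a single elastase accounted for a large part of the added MMP transcript. The TIMP sum was 5.71 ± 1.02 CPM per kb in WT chow, 32.6 ± 4.4 in WT CDAHFD, 41.7 ± 8.96 in KO CDAHFD and 21.4 ± 3.38 in KO chow. It thus grew by a larger factor than the MMP sum. The MMP to TIMP ratio was 6.34, 8.34, 7.73 and 7.86 in the WT chow libraries, 4.03, 3.79 and 4.41 in WT CDAHFD, 2.92 and 4.27 in KO chow and 3.76, 3.41 and 2.84 in KO CDAHFD. The WT chow libraries all lay above the 8 others, and the other 3 groups overlapped or adjoined each other. Leaving Mmp12 out, the ratio had a mean of 7.56 ± 0.858 in WT chow, 2.27 ± 0.318 in WT CDAHFD, 1.96 ± 0.286 in KO CDAHFD and 2.84 ± 0.542 in KO chow (SD). These are ratios of RNA levels within a library, which do not depend on how libraries are scaled, and they carry no information on enzyme activity. Within the TIMP sum, Timp1 made up 1.67 ± 1.42% in WT chow and 35.3 ± 4.85%, 27.1 ± 0.382% and 28.5 ± 1.42% in KO chow and in WT CDAHFD and KO CDAHFD. The ADAMTS sum was 9.42 ± 0.463, 20.3 ± 0.663, 24.7 ± 1.5 and 26.8 ± 4.26 CPM per kb in WT chow, KO chow, WT CDAHFD and KO CDAHFD.

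**Figure D4:**
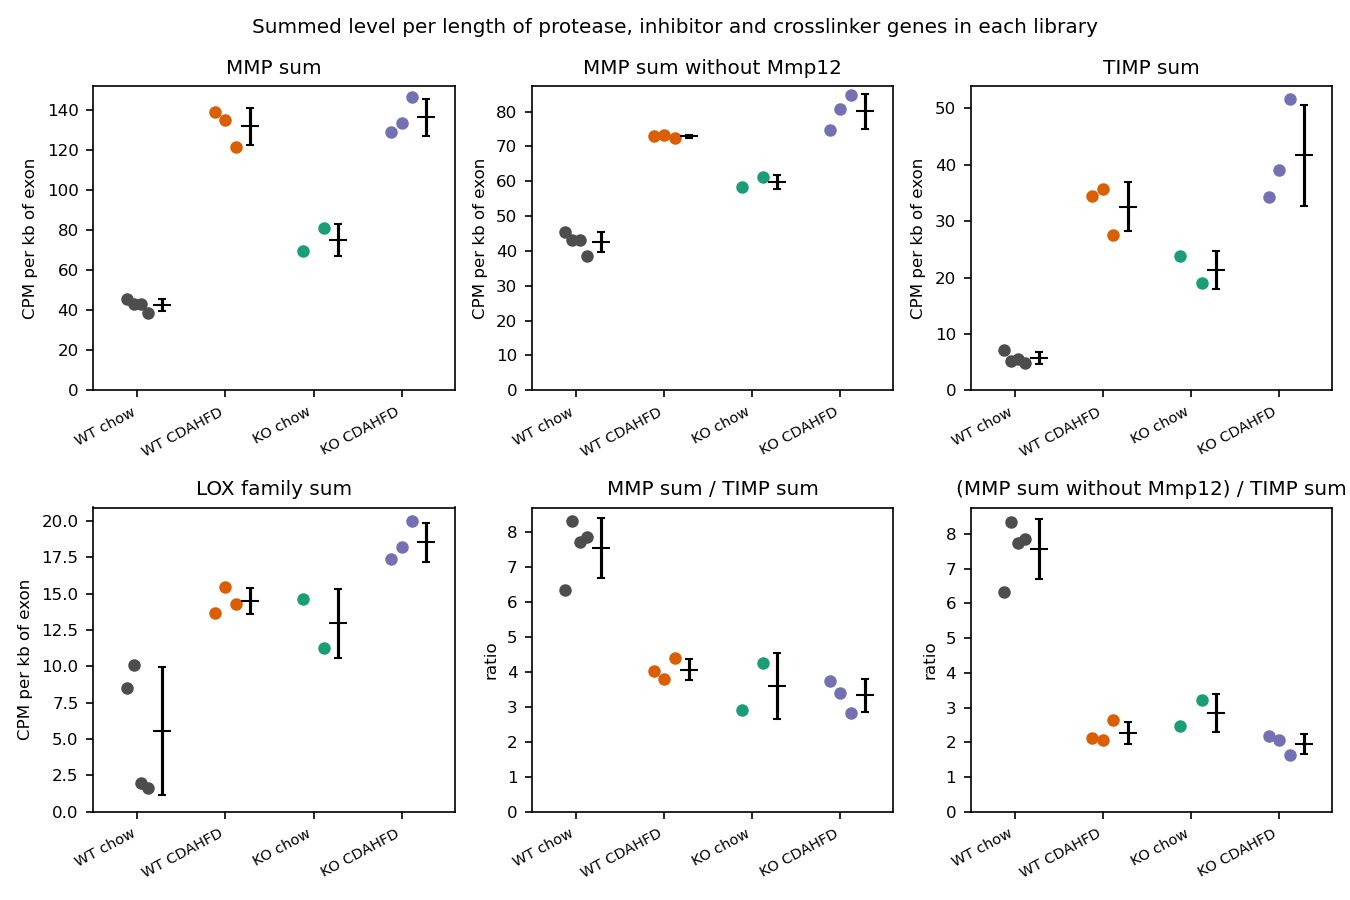
Summed levels per length (CPM per kb of exon) of MMP, MMP without Mmp12, TIMP and lysyl oxidase genes, and the MMP to TIMP ratio with and without Mmp12, in each library, with the mean and SD of each group beside the points. The sums are higher outside WT chow, except that the lysyl oxidase sum has a wide spread in WT chow, while both ratios are highest in the 4 WT chow libraries.

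The ADAMTS proteases that cut proteoglycans such as aggrecan and versican rose together, 5 of 5 tested in each comparison with WT chow. Adamts1 (ENSMUSG00000022893, chr16:85793827-85803113) was the most abundant of them per length and had 12.5, 14.3, 14.1 and 14.9 CPM in WT chow, 32.7, 44.2 and 38.7 in WT CDAHFD, 37.1 and 42.2 in KO chow and 32, 29.5 and 39.3 in KO CDAHFD. The WT chow libraries were close to each other and below all others. Against WT chow this gave a log2 fold change of 1.47 in WT CDAHFD, 1.27 in KO CDAHFD and 1.51 in KO chow (SE 0.13 to 0.14, adjusted p at most 5.19e-06). Adamts4 (ENSMUSG00000006403), an aggrecanase, had 0.932, 0.315, 0.40 and 0.367 CPM in WT chow, 3.87, 5.55 and 3.39 in WT CDAHFD, 2.94 and 3.27 in KO chow and 2.93, 2.59 and 5.02 in KO CDAHFD. The groups did not overlap with WT chow, and the log2 fold change was 3.09 in WT CDAHFD, 2.81 in KO CDAHFD and 2.63 in KO chow (SE 0.36 to 0.39, adjusted p at most 2.01e-04). Adamts5 (ENSMUSG00000022894, chr16:85856173-85901828), the other main aggrecanase, had 1.67, 2.74, 2.3 and 2.2 CPM in WT chow, 11.6, 13.1 and 9.83 in WT CDAHFD, 9.16 and 8.88 in KO chow and 16.6, 19.7 and 21.9 in KO CDAHFD. Its levels stepped up from WT chow to KO chow, WT CDAHFD and KO CDAHFD without overlap between groups. Its log2 fold change was 2.36 in WT CDAHFD, 3.12 in KO CDAHFD and 2.01 in KO chow (SE 0.17 to 0.19, adjusted p at most 4.72e-06). Adamts9 (ENSMUSG00000030022), a versican-cleaving protease, had 2.17, 2.17, 2.57 and 1.61 CPM in WT chow, 12.8, 15.7 and 9.59 in WT CDAHFD, 8.13 and 9.92 in KO chow and 16.5, 14.7 and 19.2 in KO CDAHFD. WT chow was lowest, and the KO CDAHFD libraries lay above both KO chow libraries. On the log2 scale it differed from WT chow by 2.57 in WT CDAHFD, 2.97 in KO CDAHFD and 2.07 in KO chow (SE 0.20 to 0.22, adjusted p at most 1.07e-05). Adamts15 (ENSMUSG00000033453) had 1.67, 0.661, 0.567 and 0.642 CPM in WT chow, 6.33, 4.76 and 5.18 in WT CDAHFD, 4.08 and 3.93 in KO chow and 3.76, 4.2 and 6.56 in KO CDAHFD. WT chow replicate 1 was the highest of its group and still below the others, and the log2 fold change was 2.62 in WT CDAHFD, 2.46 in KO CDAHFD and 2.18 in KO chow (SE 0.33 to 0.36, adjusted p at most 4.35e-04). Adamts8 and Adamts20 did not pass the filter.

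Procollagen N-proteinases remove the amino-terminal propeptide of fibrillar collagens before fibrils form. Adamts2 (ENSMUSG00000036545, chr11:50602084-50807573), the main one, had 9.01, 4.69, 4.0 and 3.72 CPM in WT chow, 44.6, 42.6 and 38.2 in WT CDAHFD, 35.7 and 27.5 in KO chow and 44.8, 45 and 63.1 in KO CDAHFD. WT chow was far below the other groups, and its log2 fold change was 2.96 in WT CDAHFD, 3.25 in KO CDAHFD and 2.56 in KO chow (SE 0.26 to 0.28, adjusted p at most 1.57e-05). Adamts14 (ENSMUSG00000059901), a relative with the same activity, had 1.59, 1.98, 1.43 and 0.917 CPM in WT chow, 5.49, 3.98 and 4.76 in WT CDAHFD, 3.4 and 2.96 in KO chow and 4.17, 3.5 and 4.76 in KO CDAHFD. The lowest library outside WT chow was KO chow replicate 2, above all of WT chow. Compared with WT chow, this was a log2 fold change of 1.66 in WT CDAHFD, 1.47 in KO CDAHFD and 1.08 in KO chow (SE 0.23 to 0.26, adjusted p at most 0.00524), and without KO chow replicate 1 that of KO chow was 1.0 (adjusted p = 0.0529). Adamts3 had 0.0315 to 0.679 CPM, with WT chow overlapping the other groups, and an adjusted p of 0.0862, 0.107 and 0.172 in KO chow and in WT CDAHFD and KO CDAHFD.

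The other ADAMTS genes were mixed. Adamts12 (ENSMUSG00000047497), which cuts cartilage oligomeric matrix protein, had 0.505, 0.378, 0.433 and 0.229 CPM in WT chow, 7.7, 7.46 and 7.08 in WT CDAHFD, 4.43 and 7.06 in KO chow and 6.5, 5.75 and 11.8 in KO CDAHFD. The groups were far apart from WT chow, and the log2 fold change was 4.23 in WT CDAHFD, 4.34 in KO CDAHFD and 3.87 in KO chow (SE 0.31 to 0.33, adjusted p at most 2.65e-06). Adamts16 (ENSMUSG00000049538, chr13:70727802-70841811) had 0.155, 0, 0.0333 and 0.183 CPM in WT chow, 0.82, 0.35 and 0.371 in WT CDAHFD, 0.299 and 0.291 in KO chow and 1.96, 1.76 and 2.24 in KO CDAHFD. Its KO CDAHFD libraries were the highest, above WT CDAHFD, and KO chow was next to WT CDAHFD. Adamts16 had a log2 fold change of 2.56 (adjusted p = 0.00394, SE 0.62) in WT CDAHFD and 4.51 (adjusted p = 2.87e-05, SE 0.57) in KO CDAHFD. In KO chow Adamts16 did not pass the threshold (adjusted p = 0.0716). Adamts10 (ENSMUSG00000024299), which associates with fibrillin microfibrils, had 14.9, 12.5, 7.54 and 10.04 CPM in WT chow, 29.8, 32.9 and 31 in WT CDAHFD, 20.5 and 17.9 in KO chow and 38.2, 31.1 and 36.6 in KO CDAHFD. KO chow lay between WT chow and both CDAHFD groups, without overlap with either side. Expressed as log2 fold change this was 1.47 in WT CDAHFD, 1.65 in KO CDAHFD and 0.77 in KO chow (SE 0.18 to 0.20, adjusted p at most 0.00915), and without KO chow replicate 1 that of KO chow was 0.69 (adjusted p = 0.0872). Adamts6 (ENSMUSG00000046169) was the member that fell in KO chow, with 1.9, 3.12, 2.37 and 6.42 CPM in WT chow, 2.58, 2.8 and 3.85 in WT CDAHFD, 1.39 and 1.43 in KO chow and 3.49, 3.37 and 3.57 in KO CDAHFD. Both KO chow libraries lay below all others, while the WT chow libraries spread widely. Its KO chow log2 fold change was -1.28 (adjusted p = 0.0265, SE 0.41), and it was not past the threshold without KO chow replicate 1 (-1.24 (adjusted p = 0.137)) or without KO chow replicate 2 (-1.3 (adjusted p = 0.106)). Adamts7 ranged from 5.68 to 23.4 CPM with overlapping groups and an adjusted p of 0.133, 0.919 and 0.234 in KO chow and in WT CDAHFD and KO CDAHFD, and its exons overlap with Tbc1d2b over 122 bases. Adamts13 (ENSMUSG00000014852), the protease of von Willebrand factor, which is made by stellate cells in liver, had 5.94, 7.02, 7.0 and 7.61 CPM in WT chow, 7.5, 7.85 and 9.79 in WT CDAHFD, 8.95 and 9.07 in KO chow and 7.61, 6.02 and 6.26 in KO CDAHFD. Its groups overlapped apart from KO chow, whose libraries lay above WT chow and KO CDAHFD, and its adjusted p was 0.0815, 0.128 and 0.776 in the same order.

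ADAMTS-like proteins lack the protease domain and bind microfibrils. Adamtsl2 (ENSMUSG00000036040, chr2:27079379-27108981), which binds latent TGF-β binding protein, was the most abundant of them per length outside WT chow. It had 9.24, 4.85, 3.87 and 3.26 CPM in WT chow, 60.1, 54.8 and 49.9 in WT CDAHFD, 49.7 and 23.5 in KO chow and 71.4, 81.6 and 71.1 in KO CDAHFD. WT chow was lowest, KO chow replicate 2 was the lowest of the rest, and KO CDAHFD was the highest group. In log2 fold change this came to 3.37 in WT CDAHFD, 3.81 in KO CDAHFD and 2.78 in KO chow (SE 0.32 to 0.33, adjusted p at most 3.50e-05). Adamtsl1 (ENSMUSG00000066113) had 1.05, 0.598, 0.734 and 0.505 CPM in WT chow, 2.93, 3.53 and 3.21 in WT CDAHFD, 1.31 and 1.65 in KO chow and 3.71, 3.56 and 7.99 in KO CDAHFD. KO chow stood just above WT chow and below both CDAHFD groups. Against WT chow this gave a log2 fold change of 2.15 in WT CDAHFD, 2.81 in KO CDAHFD and 1.03 in KO chow (SE 0.32 to 0.37, adjusted p at most 0.0434), and that of KO chow was past the threshold only in some of the fits that left out a library, failing without WT chow replicate 2, 3 or 4, any WT CDAHFD library or either KO chow library, with the largest adjusted p at 0.85 (adjusted p = 0.207) without KO chow replicate 2. Adamtsl3 (ENSMUSG00000070469) had 0.233, 0.0315, 0 and 0.0459 CPM in WT chow, 0.758, 0.757 and 0.59 in WT CDAHFD, 0.761 and 0.897 in KO chow and 0.824, 1.04 and 1.17 in KO CDAHFD. The groups did not overlap with WT chow, and the log2 fold change was 3.19 in WT CDAHFD, 3.71 in KO CDAHFD and 3.43 in KO chow (SE 0.58 to 0.63, adjusted p at most 8.85e-04). Adamtsl4 (ENSMUSG00000015850), which binds fibrillin, had 3.38, 2.86, 3.23 and 3.76 CPM in WT chow, 6.74, 6.37 and 5.35 in WT CDAHFD, 3.67 and 5.12 in KO chow and 5.96, 5.35 and 9.35 in KO CDAHFD. KO chow overlapped with WT chow and the CDAHFD groups did not, with log2 fold changes of 0.90 (adjusted p = 0.00322, SE 0.21) in WT CDAHFD and 1.06 (adjusted p = 9.83e-04, SE 0.21) in KO CDAHFD. Adamtsl5 showed the same order, at 0.459 to 1.59 CPM in WT chow, 1.47 and 1.26 CPM in KO chow and 2.86 to 3.30 CPM over both CDAHFD groups, with a log2 fold change of 1.37 (adjusted p = 0.00163, SE 0.29) in WT CDAHFD and of 1.36 (adjusted p = 0.00167, SE 0.29) in KO CDAHFD. In KO chow the adjusted p was 0.192 for Adamtsl4 and 0.662 for Adamtsl5.

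Lysyl oxidases oxidize lysines of collagen and elastin so that crosslinks can form. Lox (ENSMUSG00000024529), the founding member, had 1.32, 0.252, 0.133 and 0.138 CPM in WT chow, 11.8, 12.7 and 8.72 in WT CDAHFD, 7.94 and 5.72 in KO chow and 11.7, 11.8 and 16.3 in KO CDAHFD. WT chow replicate 1 held several times more than the other WT chow libraries and less than every library of the other groups. Its log2 fold change was 4.6 in WT CDAHFD, 4.86 in KO CDAHFD and 3.9 in KO chow (SE 0.50 to 0.54, adjusted p at most 1.02e-04). Loxl1 (ENSMUSG00000032334, chr9:58287738-58313186), which is needed for elastic fibers, had 3.65, 1.95, 1.7 and 1.61 CPM in WT chow, 16.9, 16.9 and 17.8 in WT CDAHFD, 15.8 and 12.4 in KO chow and 20.6, 24.1 and 30.8 in KO CDAHFD. KO CDAHFD was highest and WT chow lowest, without overlap, and the log2 fold change was 2.95 in WT CDAHFD, 3.5 in KO CDAHFD and 2.66 in KO chow (SE 0.25 to 0.26, adjusted p at most 7.20e-06). Loxl2 (ENSMUSG00000034205, chr14:69609068-69695834), a crosslinker of collagen in fibrotic liver, had 4.19, 4.44, 3.17 and 2.06 CPM in WT chow, 17.7, 18.6 and 16.3 in WT CDAHFD, 17 and 18 in KO chow and 17.8, 22 and 25.4 in KO CDAHFD. KO chow and WT CDAHFD shared a range well above WT chow. On the log2 scale it differed from WT chow by 2.33 in WT CDAHFD, 2.64 in KO CDAHFD and 2.32 in KO chow (SE 0.21 to 0.23, adjusted p at most 6.06e-06). Loxl3 (ENSMUSG00000000693) had 1.51, 2.61, 1.8 and 0.917 CPM in WT chow, 6.74, 6.16 and 6.51 in WT CDAHFD, 4.62 and 4.7 in KO chow and 6.91, 4.92 and 7.25 in KO CDAHFD. The groups did not overlap with WT chow, and the log2 fold change was 1.9 in WT CDAHFD, 1.87 in KO CDAHFD and 1.42 in KO chow (SE 0.26 to 0.29, adjusted p at most 0.00177), with a 535-base exon overlap with Htra2 on the opposite strand.

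Loxl4 was the exception in this family. By its mean over WT chow it was the most abundant lysyl oxidase per length there, which rests on 2 libraries, since it made up 70.9% and 79.9% of the lysyl oxidase sum in replicates 1 and 2 but 23.2% and 34.0% in replicates 3 and 4, and Loxl2 was above it in replicate 3. Loxl4 (ENSMUSG00000025185, chr19:42593982-42612813) had 25.5, 34.1, 1.93 and 2.39 CPM in WT chow, 5.72, 12.1 and 11 in WT CDAHFD, 17 and 8.42 in KO chow and 16.4, 14 and 4.0 in KO CDAHFD. The WT chow libraries split into a high pair (replicates 1 and 2) and a low pair (replicates 3 and 4), and the low pair was the one with a clock score above 0. KO chow replicate 2 and KO CDAHFD replicate 3, the other libraries with such a score, were the lowest of their groups too. Loxl4 had a log2 fold change of -0.74 (adjusted p = 0.477, SE 0.82) in WT CDAHFD, -0.49 (adjusted p = 0.642, SE 0.82) in KO CDAHFD and -0.34 (adjusted p = 0.799, SE 0.93) in KO chow. With the clock score as a covariate it was -0.84 (adjusted p = 0.0318) for WT CDAHFD, 0.18 (adjusted p = 0.642) for KO CDAHFD and 0.15 (adjusted p = 0.748) for KO chow, so it passed the threshold in WT CDAHFD. Over the 8 libraries with a score under 0, a setting chosen after the scores were seen, it was -1.63 (adjusted p = 0.00106) in WT CDAHFD and -0.98 (adjusted p = 0.0274) in KO CDAHFD. The part of collection time in these values was not tested. The lysyl oxidase sum was 8.55, 10.1, 1.98 and 1.66 CPM per kb in the WT chow libraries, 13.7, 15.4 and 14.3 in WT CDAHFD, 14.7 and 11.3 in KO chow and 17.4, 18.2 and 19.99 in KO CDAHFD, and the WT chow spread came from Loxl4. Without it the sum was 1.78 ± 0.605 in WT chow, 12.2 ± 0.474 in WT CDAHFD, 15.8 ± 2.89 in KO CDAHFD and 9.96 ± 0.927 in KO chow (SD).

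The hydroxylases that modify collagen before secretion changed in 1 or 2 members each. Plod2 (ENSMUSG00000032374, chr9:92542223-92608428), the telopeptide lysyl hydroxylase that leads to stable pyridinoline crosslinks, had 1.2, 0.881, 0.634 and 0.642 CPM in WT chow, 6.04, 8.31 and 5.62 in WT CDAHFD, 6.23 and 5.6 in KO chow and 8.0, 8.07 and 11 in KO CDAHFD. The WT chow libraries lay far below the rest, and the log2 fold change was 2.98 in WT CDAHFD, 3.42 in KO CDAHFD and 2.81 in KO chow (SE 0.24 to 0.26, adjusted p at most 4.21e-06). Plod1 and Plod3, the abundant lysyl hydroxylases, did not pass the threshold. Plod1 (ENSMUSG00000019055) had 70.7, 52.3, 67.2 and 59.7 CPM in WT chow, 60.6, 55.9 and 59.6 in WT CDAHFD, 52.8 and 55.9 in KO chow and 57.8, 51.6 and 47.1 in KO CDAHFD. Its log2 fold change was -0.09 (95% interval -0.34 to 0.16, adjusted p = 0.544) in WT CDAHFD, -0.26 (95% interval -0.51 to -0.01, adjusted p = 0.0767) in KO CDAHFD and -0.20 (95% interval -0.49 to 0.08, adjusted p = 0.246) in KO chow, and with library size as the only scaling these became 0.47, 0.35 and 0.20, so a direction cannot be given. In KO CDAHFD the value passed the threshold without WT chow replicate 2, at -0.30 (adjusted p = 0.0309). Plod3 had 42.9, 28.6, 32.2 and 30.8 CPM in WT chow, 40.7, 40.4 and 37.4 in WT CDAHFD, 40.7 and 34.1 in KO chow and 39.7, 34.5 and 33.9 in KO CDAHFD, with an adjusted p of 0.457, 0.172 and 0.557 in KO chow and in WT CDAHFD and KO CDAHFD. It overlaps with Znhit1 on the opposite strand over 529 exon bases. The summed level of the 3 lysyl hydroxylases was 16.8 ± 2.52 CPM per kb in WT chow, 18.6 ± 0.483 in WT CDAHFD, 17.4 ± 1.26 in KO CDAHFD and 17.4 ± 0.797 in KO chow, within the spread of the WT chow libraries.

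P4ha1 (ENSMUSG00000019916, chr10:59323296-59373304), the main catalytic subunit of prolyl 4-hydroxylase, which makes the collagen helix stable, had 16.6, 14, 11.2 and 13.7 CPM in WT chow, 22.3, 29.5 and 19.3 in WT CDAHFD, 30.4 and 23.9 in KO chow and 20.8, 23.8 and 21 in KO CDAHFD. The groups did not overlap with WT chow, and KO chow held the highest library. Compared with WT chow, this was a log2 fold change of 0.77 in WT CDAHFD, 0.66 in KO CDAHFD and 0.97 in KO chow (SE 0.16 to 0.18, adjusted p at most 0.00469). P4ha2 had 11, 7.33, 6.27 and 5.69 CPM in WT chow, 4.81, 6.78 and 8.08 in WT CDAHFD, 11.7 and 8.63 in KO chow and 7.03, 5.88 and 6.87 in KO CDAHFD. Its groups overlapped, and its adjusted p was 0.225, 0.491 and 0.509 in KO chow and in WT CDAHFD and KO CDAHFD. P4ha3 had 0 to 0.116 CPM in WT chow, 0.109 and 0.146 CPM in KO chow and 0.262 to 0.535 CPM over both CDAHFD groups. P4ha3 rose by 2.95 (adjusted p = 0.00312, SE 0.69) in WT CDAHFD and by 3.28 (adjusted p = 0.00136, SE 0.68) in KO CDAHFD (log2), while in KO chow its adjusted p was 0.134.

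**Figure D5:**
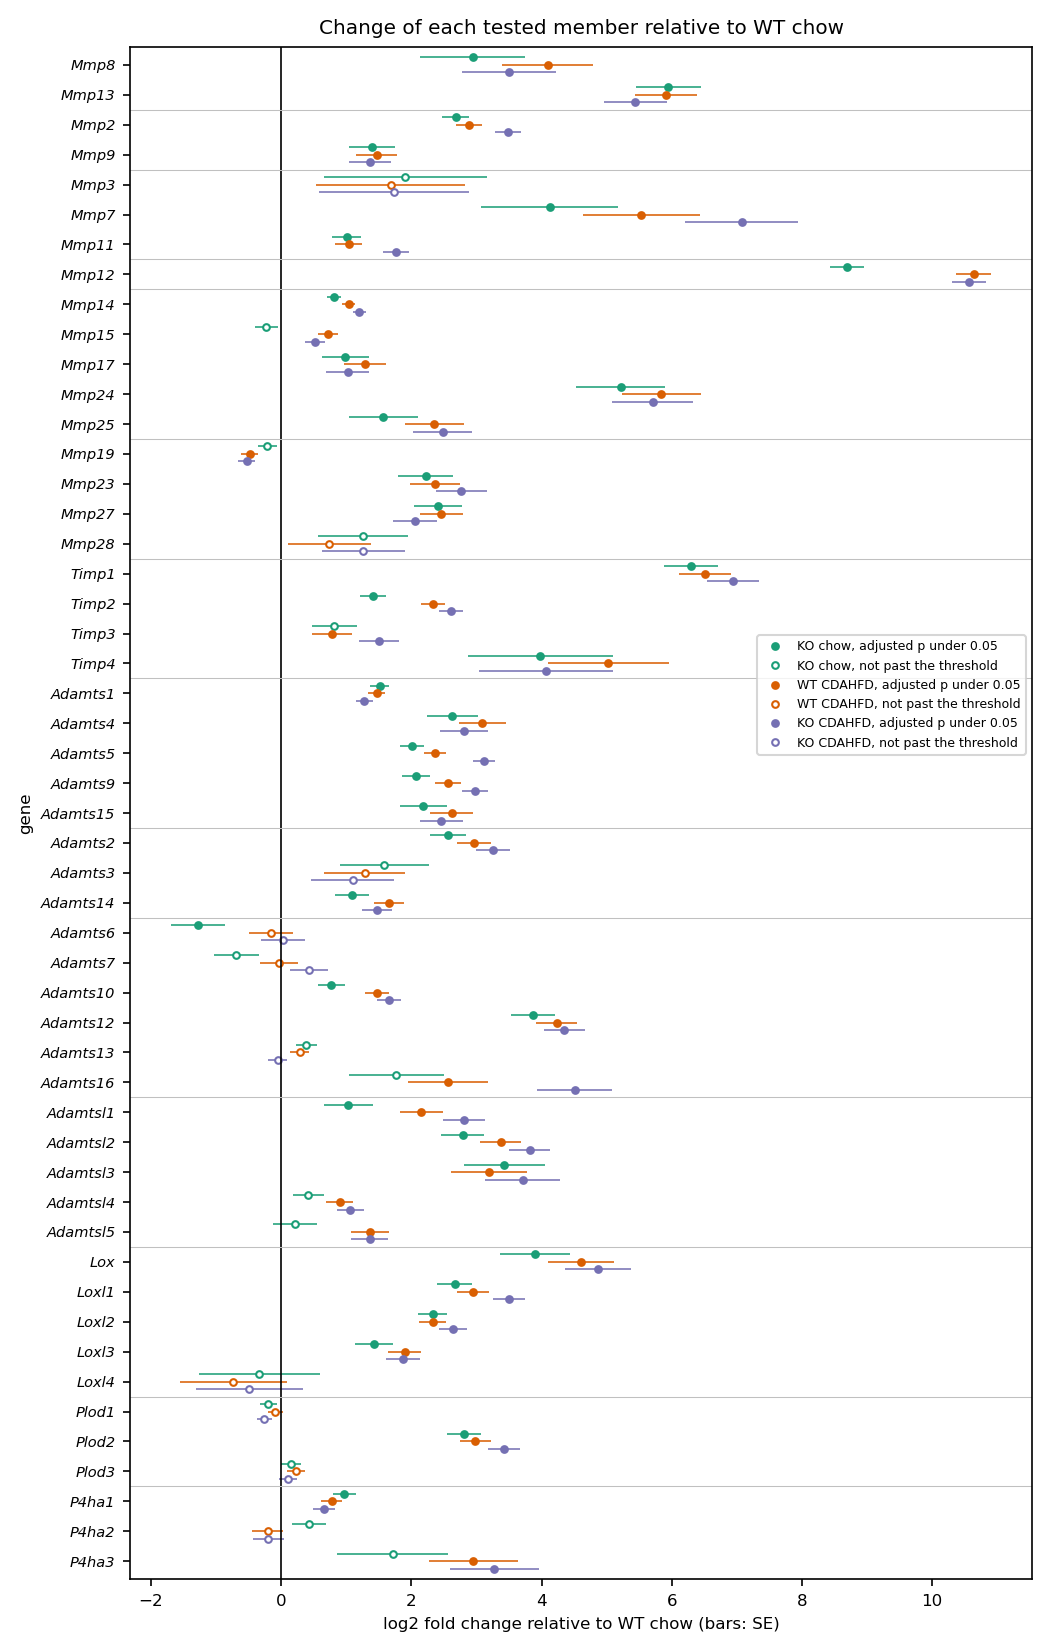
The log2 fold change of each tested member relative to WT chow for the 3 other groups, with its SE as a bar and filled points where the adjusted p was under 0.05. Nearly all filled points lie right of 0, from 0.52 for Mmp15 in KO CDAHFD to 10.64 for Mmp12 in WT CDAHFD, and those of Mmp19 and Adamts6 lie left of it. Values of Mmp24 and Timp4 rest on a single WT chow count.

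The 11 members that were not tested were Mmp1a, Mmp1b, Mmp10, Mmp16, Mmp20, Mmp21, Adamts8, Adamts17, Adamts18, Adamts19 and Adamts20. Mmp1a, Mmp1b and Adamts18 had no count in the 12 libraries, and the others had 1 to 50 counts in all. Adamts8 was seen mainly in WT chow replicate 1 and in KO CDAHFD, at 0.311 CPM and 0.0535 to 0.262 CPM. Its exons overlap with Gm29724 on the opposite strand.

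Between the KO and WT livers on CDAHFD, no member passed the threshold. Of the 51 members 0 were called, against 0.357% of all genes tested. The DESeq2 Wald test called 3 members (Adamts16, Adamts5 and Mmp11), against 1.44% of all genes. All 3 were higher in KO CDAHFD, by a log2 fold change of 1.96 for Adamts16, 0.76 for Adamts5 and 0.73 for Mmp11. In the edgeR test the differences were 1.95 (95% interval 0.92 to 2.97, adjusted p = 0.149) for Adamts16, 0.75 (95% interval 0.38 to 1.13, adjusted p = 0.121) for Adamts5 and 0.72 (95% interval 0.29 to 1.16, adjusted p = 0.232) for Mmp11. For Mmp12 the difference was -0.07 (95% interval -0.47 to 0.33, adjusted p = 0.949), for Timp1 it was 0.43 (95% interval -0.16 to 1.01, adjusted p = 0.719), and for Lox it was 0.26 (95% interval -0.66 to 1.18, adjusted p = 0.908). The intervals of these last 3 genes include 0 and differences in either direction.

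CDAHFD in KO mice raised 9 members relative to KO chow and lowered none, against 3.76% and 2.44% of all genes tested. They were proteases (Mmp12, Mmp7, Mmp15, Adamts5, Adamts9, Adamts10 and Adamts16), the inhibitor Timp2 and the microfibril protein Adamtsl1. Beside the values of Mmp12 and Timp2 given above, Adamts16 rose by 2.74 (adjusted p = 0.0206, SE 0.60) and Mmp7 by 2.95 (adjusted p = 0.0412, SE 0.77). Adamtsl1 rose by 1.78 (adjusted p = 0.0188, SE 0.38) and Adamts5 by 1.11 (adjusted p = 0.00889, SE 0.20). Adamts9, Adamts10 and Mmp15 rose by 0.90, 0.88 and 0.75, with adjusted p of 0.0369, 0.0355 and 0.0395. Mmp12 stayed past the threshold without each library in turn, and the other 8 did not. Adamts16 was not past it without KO chow replicate 1 or 2 or KO CDAHFD replicate 1 or 3 (2.65 to 2.78, adjusted p 0.0537 to 0.137). Adamts5 was not past it without KO chow replicate 1 or 2 (1.08 to 1.15, adjusted p 0.0624 to 0.0702), and Adamtsl1 without KO chow replicate 1 or 2 (1.65 to 1.96, adjusted p 0.0722 to 0.159). Mmp7 was not past it without WT CDAHFD replicate 1 or 2 or KO chow replicate 2 or KO CDAHFD replicate 2 or 3 (2.07 to 2.95, adjusted p 0.0524 to 0.144). Adamts9 was not past it without WT CDAHFD replicate 1 or KO chow replicate 1 or 2 or KO CDAHFD replicate 1 or 3 (0.78 to 1.04, adjusted p 0.0621 to 0.257), Adamts10 without WT CDAHFD replicate 1, 2 or 3 or KO chow replicate 1 or 2 or KO CDAHFD replicate 1 or 3 (0.78 to 1.0, adjusted p 0.0545 to 0.159) and Mmp15 without WT CDAHFD replicate 1, 2 or 3 or KO chow replicate 1 or KO CDAHFD replicate 1, 2 or 3 (0.47 to 0.80, adjusted p 0.0539 to 0.283). The value of Timp2 without KO chow replicate 2 is given with its levels. No lysyl oxidase, lysyl hydroxylase or prolyl 4-hydroxylase was among the 9. Loxl1 was called higher in this comparison by DESeq2 (0.87, adjusted p = 0.0261) and by edgeR without the filter (0.85, adjusted p = 0.0242). With a library outside KO chow left out, 459 to 1437 of all genes tested were called in this comparison, against 1075 in the main fit. The count of members depended on single libraries too. It was 16 without WT chow replicate 1, 5 without WT CDAHFD replicate 1, 3 without KO chow replicate 1, 2 without KO chow replicate 2, 5 without KO CDAHFD replicate 1 and 4 without KO CDAHFD replicate 3.

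KO chow was also set beside WT CDAHFD. Here 3 members differed, Mmp12, Timp2 and Mmp15, all lower in KO chow, where 3.42% of all genes tested were lower and 2.71% higher. The Mmp15 difference was -0.95 (adjusted p = 0.0148, SE 0.19). It was -0.65 (adjusted p = 0.138) without KO chow replicate 1 and -0.94 (adjusted p = 0.0538) without WT CDAHFD replicate 1. The count of members was 1 without either of these libraries, 2 without KO chow replicate 2 or WT CDAHFD replicate 2 and 5 without WT chow replicate 4. Over all genes tested, 1063 were called in the main fit and 357 without WT CDAHFD replicate 1. That number was 376 without WT CDAHFD replicate 2 and 1100 without WT chow replicate 4. The collagenase Mmp13 differed by 0.03 (95% interval -0.83 to 0.89, adjusted p = 0.973), and the crosslinker Loxl2 by -0.00 (95% interval -0.51 to 0.51, adjusted p = 0.993). The 48 other tested members did not pass the threshold, which does not show that they were alike.

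The change of many members by diet differed between genotypes. The interaction of genotype and diet, the log2 change by CDAHFD in KO mice minus that in WT mice, was negative for 29 of the 51 tested members and positive for none, against 14.5% and 8.63% of all genes tested. The 29 came from every family, 9 MMP, 3 TIMP, 9 ADAMTS, 2 ADAMTS-like, 4 lysyl oxidase, 1 lysyl hydroxylase and 1 prolyl 4-hydroxylase gene. Apart from Mmp24 and Timp4, whose WT chow level rests on 1 count, the most negative were -8.76 (adjusted p = 1.28e-08, SE 0.33) for Mmp12, -6.42 (adjusted p = 2.08e-05, SE 0.63) for Mmp13 and -5.87 (adjusted p = 1.12e-05, SE 0.52) for Timp1. Adamts12, Lox and Mmp8 followed with -3.75, -3.64 and -3.54. That of Mmp8 was not past the threshold without WT CDAHFD replicate 2 or KO chow replicate 1 or 2 (-3.31 to -3.58, adjusted p 0.0523 to 0.0542). Among members without a call, Mmp15 had 0.946, Plod1 0.927 and Loxl4 0.791 as adjusted p. The KO chow libraries of Mmp13, Timp1 and Lox lay far above WT chow, as given above, and those of Mmp13 lay above the KO CDAHFD libraries too.

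Other genes of matrix turnover, listed by function, are counted here in the order KO chow, WT CDAHFD and KO CDAHFD against WT chow. Of 16 matrix substrates, 14 rose and 1, Fn1 (fibronectin, of which hepatocytes make most), fell in each comparison. Col1a1, a chain of type I collagen, rose by a log2 fold change of 4.86 in WT CDAHFD, 5.25 in KO CDAHFD and 4.28 in KO chow, and Eln, elastin, the substrate of Mmp12, by 3.01 in WT CDAHFD, 4.19 in KO CDAHFD and 3.09 in KO chow. Other crosslinking and fibril-organizing genes rose in 7 of 8 cases in each comparison, among them Lum (lumican), by 3.6 in WT CDAHFD, 3.97 in KO CDAHFD and 3.13 in KO chow. In procollagen folding and processing, 8 of 14 tested genes rose in each comparison and 2, 4 and 3 fell. Serpinh1, the collagen chaperone HSP47, rose by 2.16 in WT CDAHFD, 2.53 in KO CDAHFD and 2.09 in KO chow, and Bmp1, a procollagen C-proteinase, fell by 1.09, 0.87 and 0.88. The plasminogen system, whose protease plasmin activates MMPs, split. Plat, Plau and Plaur rose, with Plau (urokinase) at 3.49 in WT CDAHFD, 3.7 in KO CDAHFD and 2.66 in KO chow, while 3, 3 and 2 others fell, with Plg, plasminogen itself, at -1.07 in WT CDAHFD, -1.19 in KO CDAHFD and -1.12 in KO chow. Of 7 tested ADAM sheddases, 6 rose in each comparison, and Adam9 fell in both CDAHFD groups. Of 5 other inhibitors of matrix proteases, 1, 2 and 2 rose and 0, 1 and 1 fell, with Slpi, an inhibitor of serine elastases, higher by 2.64 in WT CDAHFD, 3.64 in KO CDAHFD and 3.6 in KO chow. Of 11 tested other matrix proteases and collagen receptors, 8 rose in each comparison and 1, 1 and 0 fell, with Ctsk, cathepsin K, higher by 4.42 in WT CDAHFD, 4.22 in KO CDAHFD and 2.53 in KO chow.

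Markers of liver cell types moved with these changes. Hepatocyte markers fell in 5 of 6 cases in KO chow and 6 of 6 in each CDAHFD group, at a summed level of 84146 to 105589 CPM in WT chow, 44166 to 54764 CPM in WT CDAHFD, 69792 to 80341 CPM in KO chow and 43609.8 to 57981 CPM in KO CDAHFD. Myofibroblast markers rose in 4, 4 and 5 of 6 cases in KO chow and in WT CDAHFD and KO CDAHFD. Their summed level was 24.1 to 93.9 CPM in WT chow and 487 to 528 CPM in WT CDAHFD. It was 347 to 422 CPM in KO chow and 554 to 833 CPM in KO CDAHFD. Col1a1 and Col1a2, also counted as matrix substrates, made up most of that sum outside WT chow. Acta2 did not follow the sum. WT chow replicate 1 had 31.9 CPM of Acta2, the most of any library, and the other WT chow libraries had 1.27 to 1.48 CPM. Acta2 had 9.22 to 12.04 CPM in WT CDAHFD, 20.56 and 6.96 CPM in KO chow and 7.18 to 21.12 CPM in KO CDAHFD. Stellate cell markers rose in 4, 4 and 5 of 8 cases and fell in 0, 2 and 2, at 250.5 to 343 CPM in WT chow, 377 to 422 CPM in WT CDAHFD, 405 to 482 CPM in KO chow and 383 to 410.4 CPM in KO CDAHFD. Endothelial markers rose in 1, 0 and 0 of 7 cases and fell in 0, 4 and 4, at 187 to 291 CPM in WT chow, 127 to 179 CPM in WT CDAHFD, 179 to 266 CPM in KO chow and 127 to 227 CPM in KO CDAHFD. T and NK cell markers rose in 5, 4 and 4 of 6 cases, at 2.29 to 3.17 CPM in WT chow, 5.09 to 5.59 CPM in WT CDAHFD, 5.84 to 8.21 CPM in KO chow and 4.63 to 5.76 CPM in KO CDAHFD. B and plasma cell markers rose in 1, 0 and 0 of 4 tested, at 3.76 to 7.76 CPM in WT chow, 6.1 to 9.08 CPM in WT CDAHFD, 5.06 to 16.2 CPM in KO chow and 6.11 to 12.3 CPM in KO CDAHFD. Mesothelial markers rose in 0, 1 and 1 of 5 cases, at 1.63 to 5.38 CPM in WT chow, 3.46 to 9.59 CPM in WT CDAHFD, 1.79 to 6.69 CPM in KO chow and 3.34 to 3.76 CPM in KO CDAHFD. Of the pancreas markers, Prss2 and Pnlip were at 0 in every library, and Cpa1 and Ctrb1 had at most 1 count in a library. Cela1 alone had a level, and it fell, so that the list summed to 64.6 to 106 CPM in WT chow, 10.3 to 12.9 CPM in WT CDAHFD, 10.4 to 13.7 CPM in KO chow and 6.97 to 16.3 CPM in KO CDAHFD. Of the adipocyte markers, Lep was at 0 in every library, and the summed level was at most 0.170 CPM in any library. The part of these cell types in the changes of the members was not tested.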

How the data were processed

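Liver poly-A RNA of 12 mice was sequenced without strand information. Per the labels and the study's methods, the authors checked reads with FastQC 0.11.5, aligned them to GRCm38 with STAR 2.7.3a and tested genes with DESeq2. The counting program and gene annotation are not given in the sources used here. The deposited values were raw read counts per gene, whole numbers that were not normalized. The study's methods give 3 mice per group, while the labels give 4, 3, 2 and 3 libraries for WT chow, WT CDAHFD, KO chow and KO CDAHFD, and the labels were followed.

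From these counts, gene symbols, positions and exon lengths were taken from GENCODE M21 on GRCm38, which held 52081 of the 55357 identifiers (94.08%), with 99.691% of the counts. Genes were filtered with filterByExpr, which left 17358, libraries were scaled by TMM, and differences were tested with edgeR 4.0.16 (R 4.3.3, quasi-likelihood, a mean per group over the 12 libraries). P-values were adjusted by Benjamini-Hochberg over the tested genes, with a call at an adjusted p under 0.05. SEs and 95% intervals come from the same fits. The study's methods describe RNA from livers of separate mice, at a number per group that the libraries do not match throughout. P-values measure the spread between these libraries. CPM used TMM-scaled library sizes, and levels per length divided CPM by kb of merged exons. Family sums and ratios were computed per library and not tested. Intervals of count ratios cover counting error only.

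Members were the genes that match the symbol rule, and those named are the members with a call against WT chow, the members at the top of each role per length, and the members that missed the filter. Members, lists of other genes and markers, and tests were chosen with earlier results of these data known. Alternatives were other scalings, DESeq2 1.42.0, no filter, only the groups compared, a replicate block, the clock score as a covariate, each library left out and, added after seeing the data, only libraries with a clock score under 0. The edgeR procedure was tested on simulated counts. Exon overlaps of members with other genes were checked, and not all of them are reported here. Mmp1b shares 157 exon bases with Mmp12 on the opposite strand and had 0 counts, against 120760 for Mmp12. How reads in shared stretches were counted is not given in the sources used here. Promoter windows came from RefSeq on GRCm38.p6.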

Additional observations from a re-analysis of the deposited data

Results flagged for a closer look

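Within WT chow, the single group of 4, a library far from the others was found for 5 of the 51 tested members, and chance gives about 1 in 20. The gap to the nearest library, as a share of the range of CPM on the log2 scale, was 0.862 for Adamts15 and 0.852 for Mmp13, with replicate 1 highest in both, and 0.875 for Mmp17, with replicate 4 lowest. It was 1.0 for Mmp24, with replicate 3 highest, and 1.0 for Timp4, with replicate 1 highest, each from a single count. Replicate 1 of WT chow also had the highest myofibroblast markers of its group, and the part of that in these values was not tested.

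The change by CDAHFD differed between genotypes (edgeR interaction test, n = 12 libraries) for 29 members, in each case with a lower log2 change in KO than in WT mice. Among proteases the interaction was -8.76 for Mmp12, -6.42 for Mmp13, -5.35 for Mmp24, -3.54 for Mmp8, -2.81 for Mmp27, -2.08 for Mmp2, -1.81 for Mmp23, -1.49 for Mmp9 and -0.65 for Mmp14. Among ADAMTS genes it was -3.75 for Adamts12, -2.91 for Adamts4, -2.35 for Adamts15, -2.27 for Adamts2, -1.71 for Adamts1, -1.67 for Adamts9, -1.28 for Adamts14, -1.26 for Adamts5 and -0.72 for Adamts13. For ADAMTS-like genes it was -2.91 for Adamtsl3 and -2.34 for Adamtsl2. The inhibitors had -5.87 for Timp1, -4.94 for Timp4 and -1.14 for Timp2. The crosslinkers and hydroxylases had -3.64 for Lox, -2.11 for Loxl1, -2.01 for Loxl2, -1.45 for Loxl3, -2.37 for Plod2 and -1.09 for P4ha1. Values of Mmp24 and Timp4 rest on 1 count in WT chow. With 2 KO chow libraries, several of these rested on 1 library. The interaction was not past the threshold for Loxl3 without KO chow replicate 1 (-1.46, adjusted p = 0.0568), for P4ha1 without KO chow replicate 1 (-0.91, adjusted p = 0.0523), for Timp2 without KO chow replicate 1 (-0.92, adjusted p = 0.0756), for Timp4 without KO chow replicate 1 (-4.54, adjusted p = 0.0636) and for Adamtsl3 without KO chow replicate 2 (-2.79, adjusted p = 0.0533). It was not past it for Adamts14 without WT CDAHFD replicate 1 or KO chow replicate 1 (-1.16 to -1.18, adjusted p 0.0539 to 0.0843) or for Mmp8 without WT CDAHFD replicate 2 or KO chow replicate 1 or 2 (-3.31 to -3.58, adjusted p 0.0523 to 0.0542). Mmp9 lost it without WT chow replicate 2 or WT CDAHFD replicate 1, 2 or 3 or KO chow replicate 1 or KO CDAHFD replicate 1 or 2 (-1.03 to -1.55, adjusted p 0.064 to 0.238), Mmp23 without WT chow replicate 2 or 4 or WT CDAHFD replicate 1, 2 or 3 or KO chow replicate 1 or KO CDAHFD replicate 1 or 2 (-1.34 to -1.84, adjusted p 0.0585 to 0.195) and Adamts13 without WT CDAHFD replicate 2 or 3 or KO chow replicate 1 or 2 or KO CDAHFD replicate 2 or 3 (-0.60 to -0.77, adjusted p 0.0546 to 0.0945).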

How the results depend on the processing

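The counts of 34, 40 and 40 members higher than WT chow (KO chow, then WT CDAHFD, then KO CDAHFD) and of 29 interactions stayed within 1.5 times under every alternative run. The smaller counts moved. Members lower in KO chow numbered 0 with library size only, only the groups compared or the replicate block, and 1 to 2 with a library outside KO chow left out. Adamts6 was not among the members called over libraries with a clock score under 0. Members lower in WT CDAHFD numbered 0 with library size only and 2 with the clock covariate or over libraries with a score under 0. Members lower in KO CDAHFD numbered 0 with library size only, 2 over libraries with a score under 0, and 1 to 2 with a library left out. Between KO CDAHFD and WT CDAHFD, DESeq2 called 3, no filter 2 and only the groups compared 1. Over all genes tested, these settings called 250 of 17358, 215 of 30104 and 154 of 16413. Between KO CDAHFD and KO chow the 9 became 15 with library size only, 17 with DESeq2, 15 without the filter, 3 over libraries with a score under 0, and 2 to 16 with a library left out. Between KO chow and WT CDAHFD the 3 became 7 with DESeq2, 6 without the filter, 7 with only the groups compared, 6 with the clock covariate, 7 over libraries with a score under 0, and 1 to 5 with a library left out. The counts over all genes tested moved too. Between KO CDAHFD and KO chow, 1075 became 1383 with library size only, 1903 with DESeq2 and 1340 of 30104 without the filter. Between KO chow and WT CDAHFD, 1063 became 2074 with DESeq2 and 2594 with the clock covariate. That number was 1397 of 30104 without the filter and 1985 of 16788 with only the groups compared. The cause of these moves was not tested.

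Library size as the only scaling moved the median change over all genes tested (log2) to 0.40, 0.51 and 0.57 in the same order, and the share of higher among called genes from 56.4%, 51.0% and 51.4% to 86.0%, 88.6% and 89.9%. The median of the tested members was then 1.97, 2.88 and 3.06. It reversed Plod1 (0.20, 0.47 and 0.35), Mmp19 (0.19, 0.072 and 0.070), Mmp15 in KO chow (0.18) and Loxl4 in KO chow (0.036) and KO CDAHFD (0.068). With a library left out, Mmp15 in KO chow ran from -0.61 (without KO chow replicate 2) to 0.089 (without KO chow replicate 1). Loxl4 then ran from -0.92 to 0.36 in KO chow, being above 0 without WT chow replicate 2 (0.36) or KO chow replicate 2 (0.086), and from -0.85 to 0.22 in KO CDAHFD, being above 0 without WT chow replicate 2. With the clock covariate Loxl4 was 0.15 in KO chow and 0.18 in KO CDAHFD.

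Replicate numbers did not pair the libraries. Over 15 pairs that share a number, deviations from the group means correlated at -0.24 to 0.27, 3 pairs were over 0.1, and 4 of 12 libraries correlated best with their own number. With the replicate block, 152 of the gene-level results kept direction and call and 15 lost the call. At this depth, members with few counts carry wide errors, and KO chow holds 2 libraries.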
